A study of Mus musculus with 6 samples.

Results

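The 5 genes of the interleukin-17 receptor family, Il17ra, Il17rb, Il17rc, Il17rd and Il17re, were examined in RNA-seq of leukemic blasts with and without Tet2. They were taken by gene symbol from 53458 genes, and 27 of the 136288 quantified transcripts belonged to them. The family was chosen by its measured values, since the lower level of Il17rb in Tet2-/- blasts was known beforehand, so the genotype values of the 5 receptors are given as a description without a test. The study asked how loss of TET2, an enzyme that oxidises methylated cytosines in DNA, changes AML driven by the short p30 isoform of CEBPA.

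Blasts came from 3 Cebpa-/p30 Tet2+/+ mice (mice 19, 23 and 24) and 3 Cebpa-/p30 Tet2-/- mice (mice 5, 7 and 8) on the C57BL/6 strain, with 1 library per mouse. Both groups lack the full-length p42 isoform of CEBPA: the floxed Cebpa allele was deleted and the other allele makes p30 alone. Per the methods of the study, marrow carrying floxed alleles was transplanted into irradiated congenic recipients, and Cre under the interferon-inducible Mx1 promoter was then switched on with poly(I:C) in both groups. Marrow was taken when recipients were moribund, and live donor-derived cells without the surface markers CD3, B220 and Ter119 were sorted. This gate removes T, B and erythroid cells and host cells, but it does not select blasts from other donor myeloid cells. The labels do not say whether the mice of a genotype had separate marrow donors, so the p-values below measure the spread between these 6 samples.

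Libraries held between 13036643 and 32855343 estimated reads. Of the 53458 genes, 22170 passed the filter on low counts, all 5 receptors among them, and 10 genes (0.0451%) were called between genotypes by edgeR's quasi-likelihood test at an adjusted p of 0.05, all of them lower in Tet2-/- blasts. The number was 0 without mouse 5, 7 or 8, 1 without mouse 24 and 2 without mouse 23. The biological coefficient of variation, the spread between mice of a genotype beyond counting error, was 43.6%. Tet2 itself, measured over the whole gene, was at 73.6, 79.5 and 98.4 TMM-normalized CPM (counts scaled to library size and edgeR's TMM factors) in Tet2+/+ mice and at 111, 79.4 and 96.7 in Tet2-/- mice, so its total level did not separate the genotypes, and reads outside a deleted part of the gene do not check the labels. The 9 markers of blasts of the granulocyte-monocyte line, led by Mpo, Prtn3 and Elane, summed to between 3135 and 3990 TPM in the 6 mice. TPM is Salmon's level per transcript length, with the same total in every library. The 6 markers of mature neutrophils summed to between 6889 and 75635 TPM, above the blast markers in every mouse. These sums do not give the share of blasts among the sorted cells.

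Interleukin-17 receptors work in pairs. IL-17RA is the shared subunit: it joins IL-17RC to bind IL-17A and IL-17F, IL-17RB to bind IL-25, and IL-17RE to bind IL-17C, while IL-17RD is a distant relative known for restraining FGF-ERK signaling. The cytoplasmic SEFIR domain recruits the adaptor Act1, which links the receptors to TRAF proteins and NF-kB, and in myeloid tissue the pathway is known for driving granulocyte production, with IL-25 and IL-17RB acting in type 2 immunity, for instance in group 2 innate lymphoid cells.

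Il17rb is transcribed from the minus strand of chromosome 14 and stands head to head with Chdh, a choline dehydrogenase gene. The 30 bases just before the annotated Il17rb start are shown because this short gap is shared by both genes and because cytosines followed by guanine are the sites TET2 acts on. They were read from RefSeq's promoter table (GRCm38.p6, minus strand, chr14:30008897-30008926), and capitals mark the 3 CG pairs:
Il17rb start: ggccagCGcCGgcttgggcagggCGgtact
The gap between the genes is 126 bases in GENCODE M21 and 4 bases in RefSeq, whose Chdh model starts further upstream. DNA methylation was not measured in these libraries.

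Over the 250 bases before the start in RefSeq's promoter table, the Il17rb window held 27 CG pairs. That was more than 91.4% of the 32851 windows of that length, whose median was 6. The windows of Il17rd, Il17rc and Il17re held 10, 4 and 2. For these genes the start in the promoter table lies inside the gene bounds printed below. The windows of Il17rd and Il17rc thus lie partly, and that of Il17re wholly, within those bounds. Windows were found for 4 of the 5 receptors, not for Il17ra. The motif letters GATA (or TATC on the other strand) were absent from all 4 windows and present in 53.6% of all windows, and the C/EBP letters TTGCNNAA (TTNNGCAA on the other strand, where N is any base) were absent from the 4 and present in 9.56% of all. A missing match says only that these letters are not in this stretch.

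The receptors fell into 3 ranges of expression in these blasts. Il17ra (ENSMUSG00000002897, chromosome 6, 120463247 to 120487559, plus strand), the shared subunit, was at 59.2, 53.9 and 54.2 TPM in Tet2+/+ mice 19, 23 and 24 and at 49.7, 75.0 and 75.4 TPM in Tet2-/- mice 5, 7 and 8. Il17rb (ENSMUSG00000015966, chromosome 14, 29996135 to 30008896, minus strand), the subunit for IL-25 and IL-17B, was at 1.92, 17.3 and 13.4 TPM in Tet2+/+ mice and at 1.37, 1.09 and 1.61 TPM in Tet2-/- mice. In every mouse Il17ra was above Il17rb. The other 3 genes were at 0.143 TPM or less in every mouse, and their ranges over mice overlapped, so that no order can be given among Il17rd, Il17re and Il17rc. By mean TPM over the 6 mice, Il17ra stood above 91.9% of the genes tested and Il17rb above 61.1%, while Il17rd, Il17re and Il17rc stood above 13.2%, 10.9% and 10.6%.

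**Figure D1:**
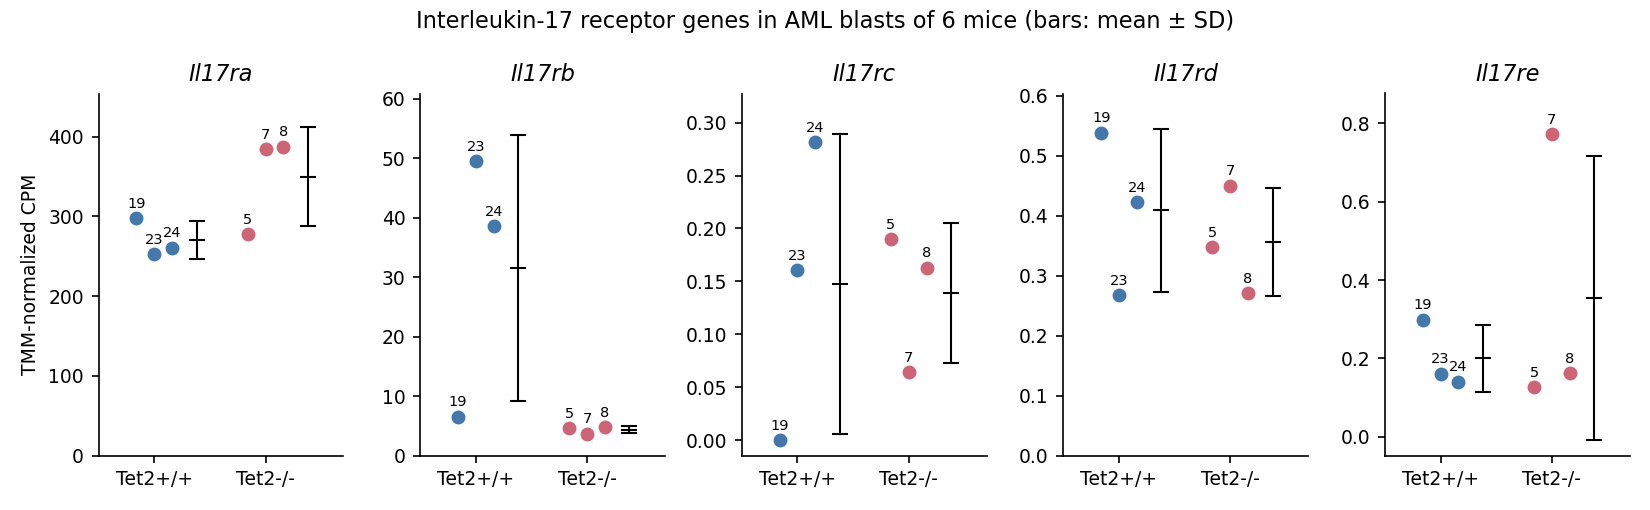
Level of each receptor gene (y axis, TMM-normalized CPM, a separate scale per panel) by genotype, with 1 numbered point per mouse and bars for the mean ± SD of 3 mice. The genotypes do not overlap for Il17rb, where Tet2+/+ mice 23 and 24 are at 49.5 and 38.6 CPM and mouse 19 is at 6.52, close to the 3 Tet2-/- mice, and they overlap for the other 4 genes.

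Il17rb was lower in Tet2-/- blasts, and most of that difference was carried by 2 of the 3 Tet2+/+ mice. It was at 6.52, 49.5 and 38.6 TMM-normalized CPM in mice 19, 23 and 24, from 109, 925 and 548 reads, and at 4.62, 3.66 and 4.83 CPM in mice 5, 7 and 8, from 146, 57 and 89 reads. Mice 23 and 24 were high, mouse 19 was 1.35-fold above the highest Tet2-/- mouse, and the genotypes did not overlap. The means were 31.5 ± 22.4 CPM (SD, n = 3) against 4.37 ± 0.620 CPM (SD, n = 3), and the fitted log2 fold change was -2.85 with a standard error of 0.68. Il17rb was the 1 receptor of 5 that lay lower in each Tet2-/- mouse, where 7.94% of all genes tested did. Since Il17rb helped to choose the family, nothing is read from that count. None of the 5 lay higher in each Tet2-/- mouse, where 6.41% of all genes did.

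The spread of Il17rb was much wider in one genotype than in the other. Among Tet2+/+ mice its CPM varied 7.60-fold with a coefficient of variation of 70.9%, above that of 96.9% of the 3897 genes with a mean CPM within 2-fold of its own, whose median was 15.8%. Among Tet2-/- mice the coefficient was 14.2%, above that of 23.9% of those genes, whose median was 25.3%. Leaving out mouse 19 gave a log2 fold change of -3.33 and leaving out mouse 23 gave -2.40, the ends of the range over the mice left out. In bulk libraries of this kind, fewer cells that express Il17rb and less Il17rb RNA per cell cannot be told apart.

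The annotated transcript classes of Il17rb did not share the difference evenly. Of its 6 transcripts, 2 are annotated as protein coding, 2 as targets of nonsense-mediated decay (the pathway that degrades RNA with an early stop codon), 1 as a retained intron and 1 as a processed transcript without an open reading frame. The nonsense-mediated decay transcripts were at 5.10, 28.0 and 20.4 CPM in Tet2+/+ mice 19, 23 and 24 and at 1.36, 0.515 and 0.740 CPM in Tet2-/- mice 5, 7 and 8, without overlap. The protein-coding transcripts were at 0.978, 17.5 and 14.8 CPM in the same Tet2+/+ mice and at 2.94, 3.02 and 3.81 CPM in the Tet2-/- mice. For the coding transcripts the genotypes overlapped, because mouse 19 lay below all 3 Tet2-/- mice. When only the coding transcripts of the receptors entered the fit, the log2 fold change of Il17rb was -1.77 with a standard error of 0.87.

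As a share of the reads of Il17rb, the nonsense-mediated decay transcripts took 78.0% in mouse 19 (85 of 109 reads, exact 95% binomial interval 69.0% to 85.4%), 56.4% in mouse 23 (53.2% to 59.7%) and 52.9% in mouse 24 (48.6% to 57.2%). They took 29.5% in mouse 5 (22.2% to 37.6%), 14.0% in mouse 7 (8 of 57 reads, 6.26% to 25.8%) and 15.7% in mouse 8 (8.88% to 25.0%). The 3 Tet2+/+ mice thus had the higher shares, and mouse 19, whose total resembled that of the Tet2-/- mice, had the highest. One of the decay transcripts, Il17rb-203, was given 0 reads in mice 7 and 8 and 19.5 in mouse 5, against 58.9, 224 and 133 in mice 19, 23 and 24. These intervals cover counting error only, take Salmon's rounded estimates as if they were counted reads, and are no test between genotypes. The transcripts overlap along most of their length, and the division of reads between them is Salmon's estimate.

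**Figure D2:**
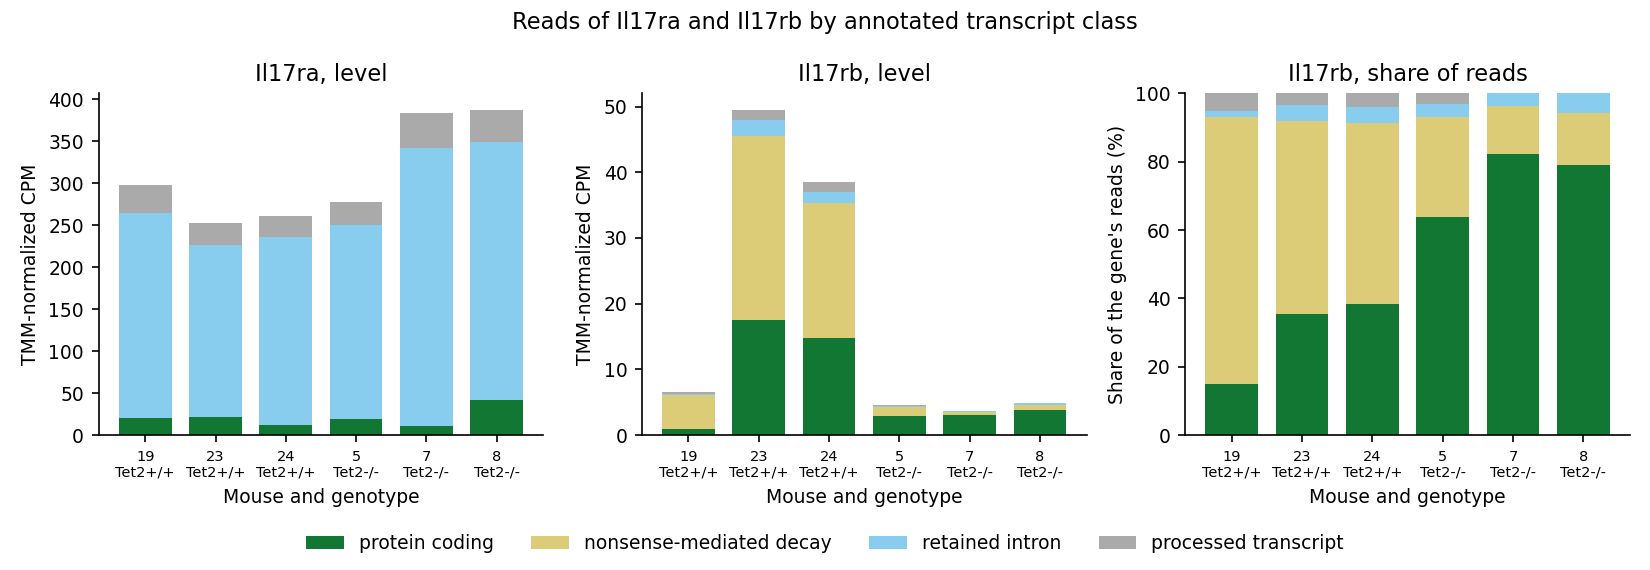
Reads of Il17ra and Il17rb by annotated transcript class in each mouse, as TMM-normalized CPM (left and middle) and, for Il17rb, as a percentage of the gene's reads (right). The nonsense-mediated decay class takes 52.9% or more of the Il17rb reads in the 3 Tet2+/+ mice and 29.5% or less in the 3 Tet2-/- mice.

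Il17ra, the most abundant receptor, varied little. It was at 298, 253 and 261 CPM in Tet2+/+ mice 19, 23 and 24 and at 278, 384 and 388 CPM in Tet2-/- mice 5, 7 and 8. Mice 7 and 8 were the highest and mouse 5 lay among the Tet2+/+ mice, so the genotypes overlapped. The means were 271 ± 24.2 CPM (SD, n = 3) and 350 ± 62.4 CPM (SD, n = 3), with a log2 fold change of 0.37 and a standard error of 0.20. With library size in place of TMM factors the value was 0.20, on a scale where the median of all genes was shifted to -0.17.

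Within a library, Il17ra exceeded Il17rb 30.8-fold, 3.12-fold and 4.05-fold by TPM in mice 19, 23 and 24 and 36.3-fold, 68.6-fold and 47.0-fold in mice 5, 7 and 8. This ratio does not depend on scaling between libraries. It was again mouse 19 that lay nearest to the Tet2-/- mice.

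Most reads of Il17ra were assigned to a transcript that is not annotated as coding. Il17ra-203, a transcript of 4804 bases and 11 exons annotated as a retained intron, took between 79.3% and 85.9% of the reads of the gene in each mouse, and the protein-coding Il17ra-201, of 7752 bases and 13 exons, took between 2.95% and 10.7%. Il17ra-203 ends 2 bases from the end of the RefSeq model of Il17ra. The short processed transcript Il17ra-202, of 805 bases, took between 9.65% and 11.2% of the reads and, being short, between 48.5% and 53.3% of the TPM. The TPM of Il17ra therefore rests on how reads were divided between a short and a long transcript, and none of the 3 classes separated the genotypes.

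Il17rc (ENSMUSG00000030281, chromosome 6, 113471427 to 113483140, plus strand), the partner for IL-17A and IL-17F, had 0, 3 and 4 reads in Tet2+/+ mice 19, 23 and 24 and 6, 1 and 3 in Tet2-/- mice 5, 7 and 8. The 0 reads of mouse 19 allow a level of up to 0.179 CPM (3 counts), and the other libraries hold the gene near that limit. The log2 fold change was 0.00 with a standard error of 0.62. Il17rd (ENSMUSG00000040717, chromosome 14, 27038941 to 27107286, plus strand) had 9, 5 and 6 reads in Tet2+/+ mice and 11, 7 and 5 in Tet2-/- mice, with a log2 fold change of -0.20 and a standard error of 0.53. Il17re (ENSMUSG00000043088, chromosome 6, 113458484 to 113470758, plus strand), the partner for IL-17C, had 5, 3 and 2 reads against 4, 12 and 3.

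No difference in these 3 genes was detectable at this depth. For Il17re the log2 fold change of 0.73, with a standard error of 0.87, came from the 12 reads of mouse 7 and turned to -0.47 without that mouse. The values for Il17rc ran from -0.57 without mouse 19 to 0.76 without mouse 24, and for Il17rd from -0.45 without mouse 23 to 0.05 without mouse 19. Of the few Il17rd reads, Salmon gave between 71.4% and 91.6% of the TPM to Il17rd-202, a short coding transcript of 4 exons, and the full-length Il17rd-201 of 13 exons had between 1.04 and 7 reads. Il17re and Il17rc lie 668 bases apart on the same strand.

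The genome neighbours of the receptors were examined because Il17rb shares its start region with one gene and its body with another. Chdh, head to head with Il17rb, was at 108, 204 and 161 CPM in Tet2+/+ mice 19, 23 and 24 and at 125, 86.6 and 73.3 CPM in Tet2-/- mice 5, 7 and 8. Mice 23 and 24 were the highest for both genes and mouse 19 the lowest of its genotype for both, and over the 6 mice the Pearson correlation of log2(CPM + 1) between Chdh and Il17rb was 0.88, as a description. The genotypes overlapped for Chdh, and its log2 fold change of -0.73 with a standard error of 0.30 did not pass the edgeR test over all genes (Benjamini-Hochberg adjusted p = 0.604).

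Actr8, which encodes a subunit of the INO80 chromatin remodelling complex, lies on the opposite strand and overlaps 141 of the 3707 exonic bases of Il17rb (3.8%). The library kit does not mark strand, so reads from those bases cannot be told apart. Actr8 was at 28.5, 42.1 and 35.7 CPM in Tet2+/+ mice and at 30.7, 30.8 and 35.1 CPM in Tet2-/- mice, with a log2 fold change of -0.14 (edgeR adjusted p = 0.890). None of the 8 neighbours, which also include Kdm5a, Tmem121b, Creld1, Hesx1, Arhgef3 and Jagn1, was called by edgeR, and for 1 (Chdh) the unadjusted p was under 0.05.

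The genes whose level over the 6 mice was most like that of Il17rb shared the low value of mouse 19, which follows from how they were picked. By Pearson correlation of log2(CPM + 1) over the 6 mice, among 13838 other genes averaging 1 CPM or more, the 5 most alike were Gm12655 (0.996), Xlr (0.995), Gm26517 (0.993), Slc24a3 (0.992) and Rnf43 (0.988). Xlr, an X-linked gene with lymphocyte-associated expression, was at 1.14, 87.9 and 83.5 CPM in mice 19, 23 and 24 and at 0.253, 0.193 and 0.977 CPM in mice 5, 7 and 8. Mice 23 and 24 alone held nearly all of it. Rnf43, a ubiquitin ligase that restrains Wnt receptors, was at 22.8, 40.1 and 33.7 CPM against 18.4, 18.3 and 20.0 CPM, a narrower range with the same order. Gm12655 and Gm26517 are noncoding and Slc24a3 encodes a sodium-calcium exchanger. These correlations rest on 6 points, of which mice 23 and 24 stand apart.

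Gata2, a transcription factor of stem, mast and basophil cells that the study followed in these blasts, did not share the low value of mouse 19. It was at 23.3, 27.9 and 27.3 CPM in Tet2+/+ mice 19, 23 and 24 and at 8.60, 4.44 and 5.21 CPM in Tet2-/- mice. Its correlation with Il17rb was 0.82, and that of Cebpa, at 140, 194 and 287 CPM against 158, 75.7 and 124 CPM, was 0.81. Mouse 19 thus had a Tet2+/+ level of Gata2 beside an Il17rb level near that of Tet2-/- mice. For Tet2 the correlation with Il17rb was -0.09.

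**Figure D3:**
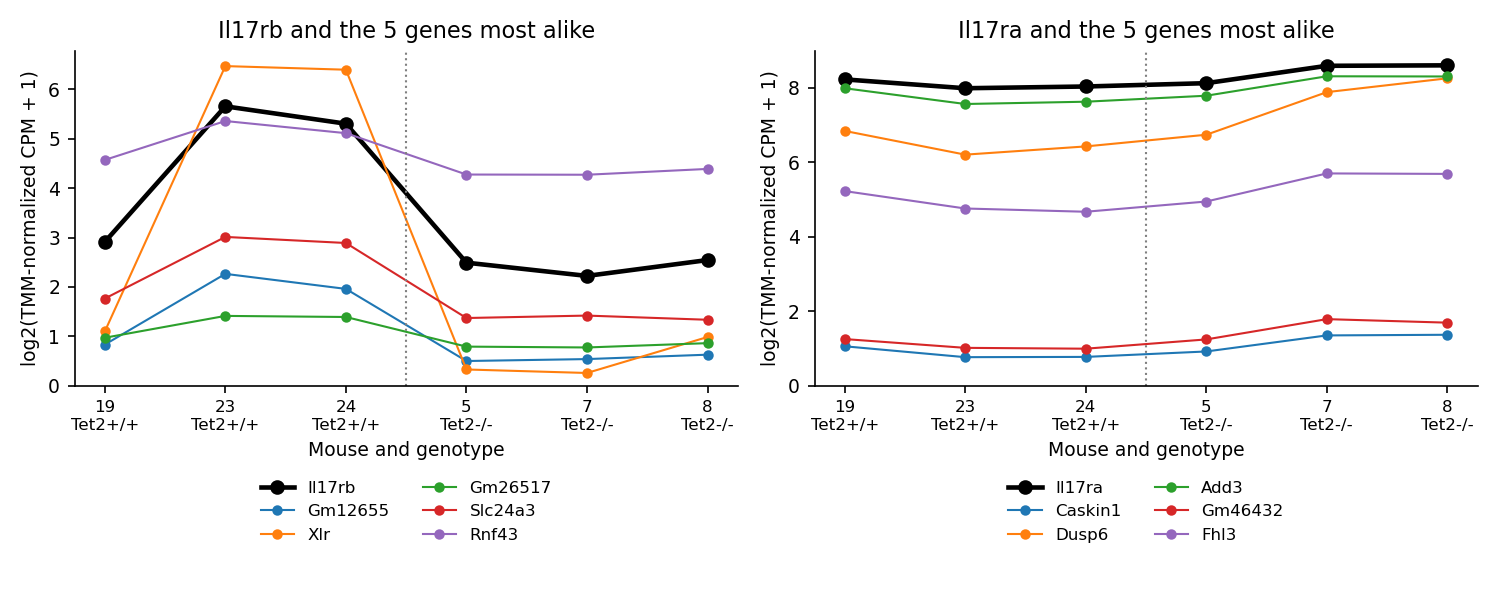
Level in each mouse (y axis, log2 of TMM-normalized CPM + 1) of Il17rb (left) and Il17ra (right) in black, with the 5 genes most alike by Pearson correlation over the 6 mice; the dotted line divides the genotypes. Il17rb and its most alike genes are high in mice 23 and 24, and Il17ra and its most alike genes are high in mice 7 and 8. The alike genes follow their receptor because they were picked by correlation with it.

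Il17ra was most like Caskin1 (0.993), Dusp6 (0.988), Add3 (0.986), Gm46432 (0.984) and Fhl3 (0.984). Dusp6, a phosphatase that switches off ERK, was at 114, 72.7 and 84.8 CPM in Tet2+/+ mice 19, 23 and 24 and at 106, 235 and 304 CPM in Tet2-/- mice 5, 7 and 8. As for Il17ra, which Dusp6 was picked to resemble, mice 7 and 8 were the highest and mouse 5 lay among the Tet2+/+ mice. Gm46432 is annotated as a processed pseudogene, whose reads may be shared with its parent gene.

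The ligands were at or near 0 in the blasts. Il17a, Il17b and Il25 had 0 reads in all 6 mice, which allows up to between 0.0949 and 0.211 CPM per library (3 counts), and Il17d had 5 reads in all. Il17c had 5, 5 and 7 reads in Tet2+/+ mice and 6, 15 and 11 in Tet2-/- mice. Il17f had 6, 6 and 5 against 11, 4 and 7. IL-25, a ligand of IL-17RB, was thus not detected at this depth in the sorted cells, and the rest of the marrow was not sequenced.

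Downstream of the receptors, no gene of the pathway passed the test. The 7 lists of ligands, proximal signaling, inhibitors, target genes, receptors of other alarmins and type 2 cytokines, FGF-ERK feedback genes and neighbours held 96 genes, of which 82 were tested, and edgeR's quasi-likelihood test called 0 at an adjusted p of 0.05, where 0.0451% of all genes were called. Without adjustment, a p under 0.05 was reached by 2 of the 82 with a lower level in Tet2-/- blasts (5.12% of all genes) and by 8 with a higher level (3% of all genes). The median log2 fold change of the 82 was 0.21, beside 0.00 for all genes tested. Scaling by library size alone gave 3 on each side. DESeq2 called 1 gene, Il5ra, described below.

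Act1, encoded by Traf3ip2 and the adaptor that the receptors bind, was at 5.38, 3.11 and 4.44 CPM in Tet2+/+ mice and at 3.73, 2.38 and 3.47 CPM in Tet2-/- mice, with overlap. Of the 22 genes of proximal signaling, 1 was higher at an unadjusted p under 0.05 (3% of all genes) and 0 were lower (5.12%). The median log2 fold change of these genes was 0.07. Mapk14, the p38 kinase, was the most abundant of them, at 350, 342 and 335 CPM against 362, 474 and 378 CPM. It was higher in each Tet2-/- mouse, though by less than a log2 unit (0.24, standard error 0.18, edgeR adjusted p = 0.781).

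Inhibitors of the pathway held the largest number of genes with a small unadjusted p. Of 9, 4 reached a p under 0.05 on the higher side (3% of all genes) and 0 on the lower side (5.12%) before adjustment. None did after it, and the median log2 fold change was 0.27. With library size only, 2 were higher and 1 lower at an unadjusted p under 0.05. In each Tet2-/- mouse 4 lay higher (6.41% of all genes) and 1 lower (7.94%). The lower one, Btrc, named for its direction, had a log2 fold change of -0.40 (edgeR adjusted p = 0.654). Nfkbia, the inhibitor that holds NF-kB in the cytoplasm, was at 88.2, 72.1 and 70.3 CPM in Tet2+/+ mice 19, 23 and 24 and at 193, 170 and 89.5 CPM in Tet2-/- mice 5, 7 and 8. The genotypes did not overlap, though mouse 8 lay close to mouse 19. The log2 fold change of 0.97 with a standard error of 0.29 did not pass the edgeR test (adjusted p = 0.507). Nlrx1 and Zc3h12a, the latter an RNase that cuts cytokine messengers, were chosen after their values were seen: their log2 fold changes were 0.87 and 0.67 with edgeR adjusted p of 0.404 and 0.578. Dok1 was at 0.44 (adjusted p = 0.578) and Tnip1, a partner of A20, at 0.26 (adjusted p = 0.748).

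Target genes that IL-17 is known to raise in myeloid and stromal cells varied widely between mice. Of 24, 18 were tested, with 1 higher (3% of all genes) and 0 lower (5.12%) at an unadjusted p under 0.05. Their median log2 fold change was 0.62. The most abundant were S100a9, S100a8 and Lcn2, products of maturing neutrophils, with log2 fold changes of 0.89, 0.96 and 1.10 and standard errors of 0.72, 0.71 and 0.63. These genotypes overlapped, and the summed TPM of the mature neutrophil markers Ltf, Camp, Ngp, Retnlg, Mmp8 and Cxcr2 was 39088, 6889 and 24718 in Tet2+/+ mice and 27517, 75635 and 15361 in Tet2-/- mice. The part of those cells in the target values was not tested. Among the classic stromal targets, Cxcl1, Ccl20 and Mmp3 had 0 reads in all 6 mice.

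Receptors of other alarmins and type 2 cytokines went both ways. Il5ra, the subunit specific to interleukin-5 (the gene was chosen after its values were seen), was at 8.43, 22.0 and 12.1 CPM in Tet2+/+ mice and at 2.5, 4.69 and 1.74 CPM in Tet2-/- mice, without overlap. Its log2 fold change of -2.26 with a standard error of 0.51 did not pass the edgeR test (adjusted p = 0.318, between 0.148 and 0.764 over the edgeR alternatives) and passed DESeq2 (adjusted p = 0.0027). Csf2rb, the beta subunit it shares with the receptors of interleukin-3 and GM-CSF, was at 504, 399 and 328 CPM against 739, 630 and 538 CPM, also without overlap, but with a log2 fold change of 0.63 (edgeR adjusted p = 0.593). Il1rl1, the IL-33 receptor, overlapped between genotypes, with a log2 fold change of 0.00 and a standard error of 0.72.

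The FGF-ERK feedback genes, which share with Il17rd the restraint of ERK, had a median log2 fold change of 0.13 over 12 tested of 15. Dusp6 had the 1 unadjusted p under 0.05 among them, higher, with a log2 fold change of 1.25, a standard error of 0.39 and overlapping genotypes (edgeR adjusted p = 0.524). Spred2 was at 0.00 with a standard error of 0.35.

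**Figure D4:**
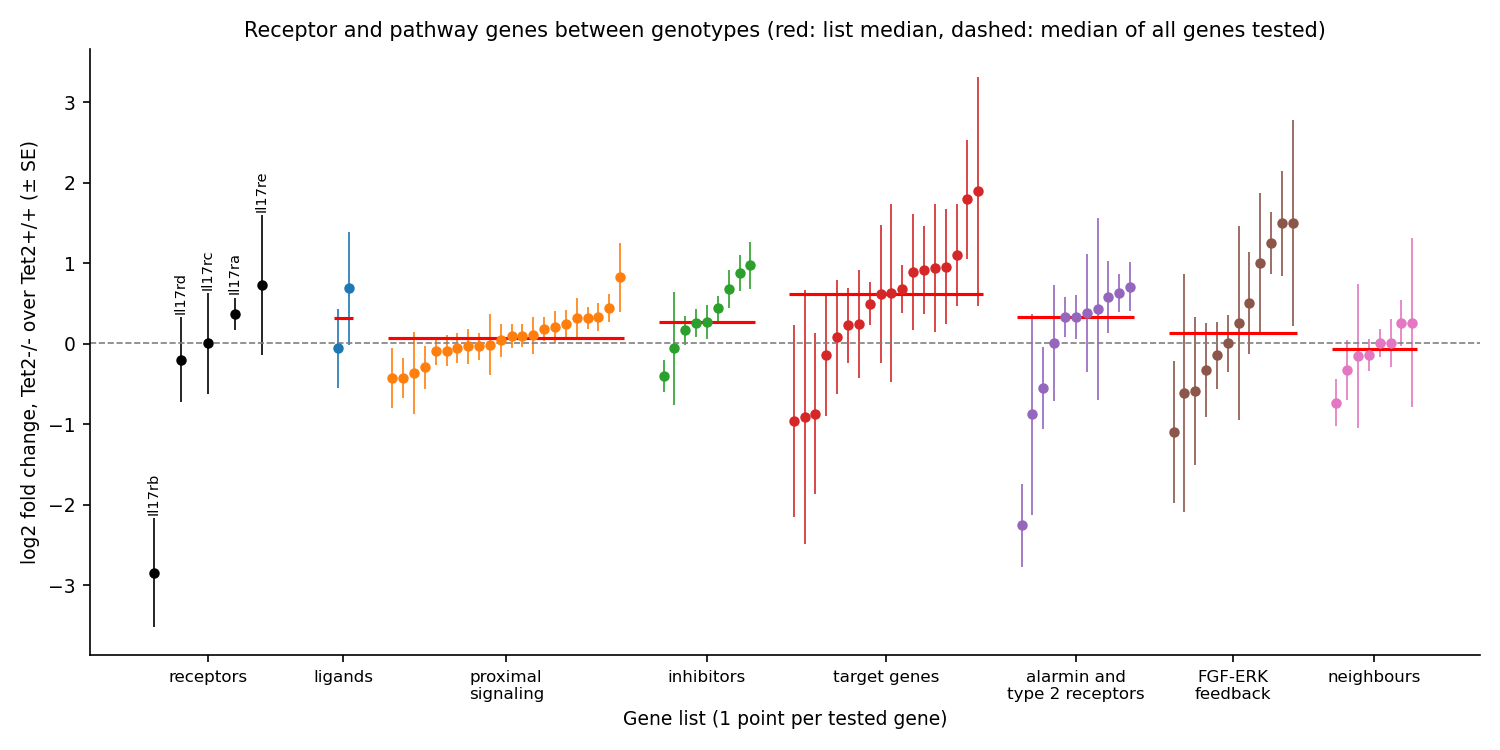
Log2 fold change of Tet2-/- over Tet2+/+ blasts (y axis) with its standard error for the 5 receptors and for each tested gene of the 7 pathway lists, sorted within a list; red lines are list medians and the dashed line is the median of all genes tested. Il17rb, at -2.85, is the lowest point, and the medians run from -0.07 for the neighbours to 0.62 for the target genes.

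Markers of other cell types were set beside Il17rb. Of 15 lists with 83 genes, 75 were tested and 0 were called by edgeR, where 0.0451% of all genes were called. At an unadjusted p under 0.05, 13 were lower (5.12% of all genes) and 2 were higher (3% of all genes). The summed TPM was lower in each Tet2-/- mouse for 4 lists (basophils and mast cells, stem and progenitor cells, plasma cells, megakaryocytes) and higher in each for 1 (monocytes and macrophages). Of all single genes tested, 7.94% lay lower and 6.41% higher in each Tet2-/- mouse. DESeq2 on all genes called 384, so the number called depends on the tool.

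The basophil and mast cell list, led by Cpa3, Mcpt8 and Gata2, summed to 194, 297 and 272 TPM in Tet2+/+ mice 19, 23 and 24 and to 67.7, 38.4 and 18.5 TPM in Tet2-/- mice 5, 7 and 8. Cpa3 made up most of these sums, at 173, 283 and 245 TPM in Tet2+/+ mice and at 57.0, 33.1 and 11.5 TPM in Tet2-/- mice. Of the 7 genes of the list 5 were tested and 3 were lower at an unadjusted p under 0.05 (5.12% of all genes). Gata2 lay lower in each Tet2-/- mouse and Mcpt8 overlapped between genotypes. Ms4a2 had a log2 fold change of 0.48 with a standard error of 0.53. Fcer1a and Prss34, which define mature basophils and mast cells, were at 0.010 and 0.025 TPM on average. By this sum, mostly Cpa3, mouse 19 lay well above the Tet2-/- mice, whereas its Il17rb did not. The stem and progenitor list, led by Cd34 and Kit, summed to 73.0, 133 and 90.9 TPM against 41.3, 34.2 and 53.3 TPM, with mouse 19 again the lowest of its genotype.

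Group 2 innate lymphoid cells are a cell type known for Il17rb. Their list summed to 24, 25.2 and 33.5 TPM in Tet2+/+ mice and to 16.0, 29.0 and 10.3 TPM in Tet2-/- mice, with overlap, and most of it was Kit, which blasts also express. Il13 and Areg had 0 reads in all 6 mice and Il5 was at 0.002 TPM on average. Of the 5 genes of this list that were tested, 4 had a negative log2 fold change and 1 a positive one. Gata3 and Rora, with 25 reads or fewer per library, lay lower in each Tet2-/- mouse. Their log2 fold changes were -1.20 and -1.05, with standard errors of 0.46 and 0.49 (edgeR adjusted p = 0.602 and 0.644). Il1rl1, Il7r and Kit overlapped between genotypes. Plasma cell markers summed to 128, 186 and 146 TPM against 125, 72.5 and 96.3 TPM, and megakaryocyte markers to 21.4, 23.8 and 14.3 TPM against 7.01, 7.47 and 5.97 TPM. Monocyte and macrophage markers summed to 2236, 2451 and 1634 TPM against 3906, 2749 and 3915 TPM. Ly6c2 made up most of these sums, at 2074, 2031 and 1466 TPM against 3625, 2636 and 3335 TPM. The other markers, Csf1r, Ccr2, F13a1, Adgre1 and C1qa, overlapped between genotypes. Tet2-/- mouse 7 was the lowest of the 6 mice for Csf1r, Ccr2, F13a1 and C1qa. The part of these cells in the level of Il17rb was not tested.

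**Figure D5:**
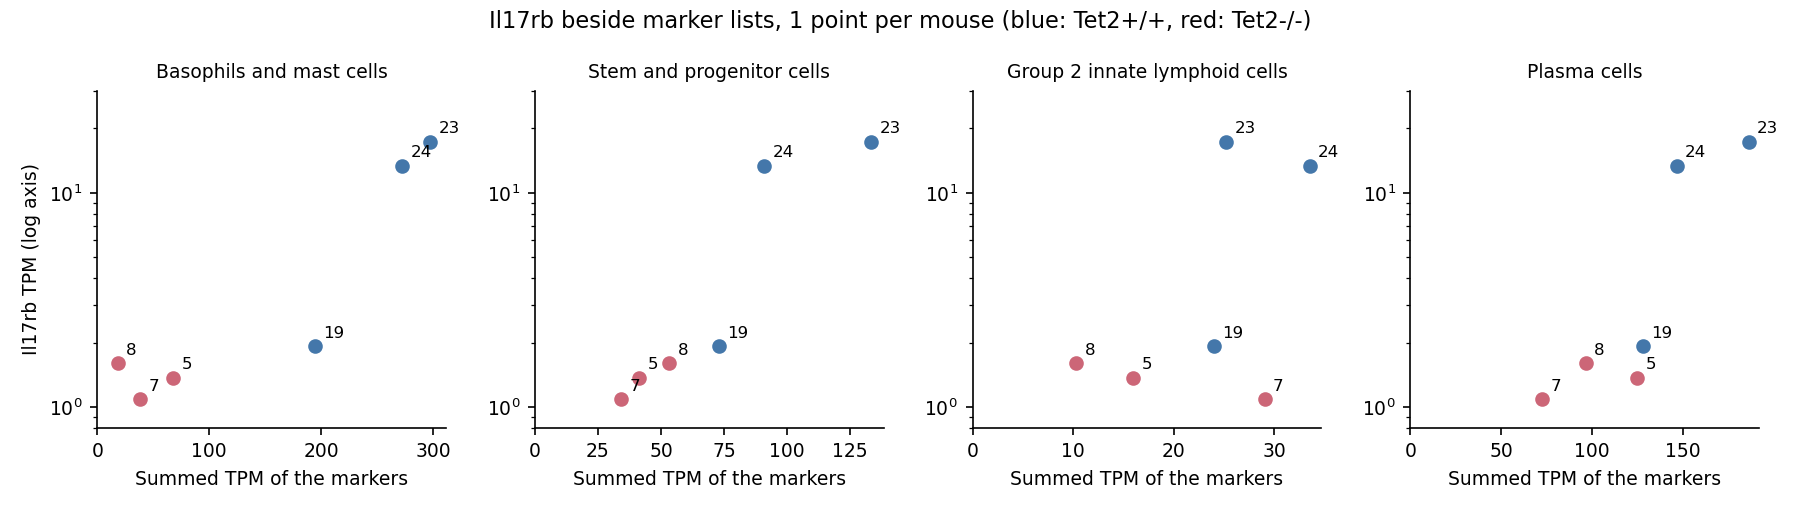
Il17rb (y axis, TPM, log axis) against the summed TPM of 4 marker lists (x axes), 1 numbered point per mouse, blue for Tet2+/+ and red for Tet2-/-. Mouse 19 sits with the Tet2+/+ mice on the basophil and mast cell list (194 TPM, mostly Cpa3) and near the Tet2-/- mice for Il17rb (1.92 TPM).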

How the data were processed

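RNA-seq libraries of sorted blasts, 1 per mouse, were made with a TruSeq kit that does not mark strand and quantified by the authors with Salmon 0.12.0 on Ensembl transcripts of GRCm38.p6. The authors deposited an estimated count per transcript, not normalized between mice, and the TPM that Salmon derived from it. Here the estimates were added up per GENCODE M21 gene (112 transcripts had no gene there) and rounded, and genes totalling 10 or more normalized counts were kept. Genotypes were compared with edgeR 4.0.16 in R 4.3.3 (TMM, quasi-likelihood test, no covariate, Benjamini-Hochberg over all genes), tested on simulated data. Standard errors were derived from the log2 fold change and the F statistic. Tables were made with Python 3.11.15 and pandas 2.3.3. The members and gene lists were chosen with earlier results of these data known. Genes named were the receptors, their neighbours, the 5 most alike to Il17rb and Il17ra, the 3 most abundant of a list, any called gene of a list, and Tet2, Gata2 and Cebpa. Values of single marker genes are given for the lists that bear on Il17rb. Other names are marked, except Traf3ip2, Il1rl1 and genes listed at 0, named for their role. Alternatives were DESeq2 1.42.0, length-scaled counts, other filters and scalings, coding transcripts only and leaving out each mouse. Mouse numbers are not shared between genotypes, so nothing was paired.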

Additional observations from a re-analysis of the deposited data

How the results depend on the processing

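The log2 fold change of Il17rb kept its sign in all 13 alternatives, from -3.33 to -2.40 over the mice left out, and moved to -1.77 with coding transcripts only. That of Il17ra was positive in all 13, from 0.29 to 0.50 over the mice left out. The sign of Il17rc, Il17rd and Il17re, which had at most 12 reads in any library, turned between mice left out, so depth limits these 3. The number of genes called between genotypes was 10 with edgeR, 384 with DESeq2, 5 with length-scaled counts and 66 without a filter on low counts, and lay between 0 and 7 with 1 mouse left out, at 0 without mouse 5, 7 or 8, where 1159, 1074 and 1100 genes were lower at an unadjusted p under 0.05. Pathway genes called were 0 in each edgeR alternative, also over the mice left out, and 1 with DESeq2. The causes were not tested. The share of genes without overlap was 14.4%, and between 13.3% and 16.0% with library size, TPM or a minimum of 1 CPM. The fold change of the Il17rb decay transcripts on the log2(TPM + 1) scale, -2.13, became -3.08 from reads and -3.81 with a pseudocount of 0.1. No paired analysis was possible because the genotypes share no mouse number.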
